A study of Mus musculus with 18 samples.

Results

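Retinoic acid is made and destroyed by a small set of enzymes, and 8 of their genes were followed here in mouse embryos with and without a conditional deletion of Meis1 and Meis2: Rdh10, Dhrs3, Aldh1a1, Aldh1a2, Aldh1a3, Cyp26a1, Cyp26b1 and Cyp26c1. The genes were found by matching the Ensembl identifiers of the gene table to their symbols, and each of the 8 had 1 row among the 53465 genes of the table. RNA sequencing covered 9 embryos of 20 to 24 somites at embryonic day 9, and each embryo gave 1 anterior and 1 posterior library. There were 5 embryos labelled control and 4 double knockout (DKO) embryos, in which Meis1 and Meis2 were conditionally deleted by Delta1Cre, and both sexes were present in each genotype. The posterior piece held the axial bud and the last 10 to 12 somites to form, and the anterior piece held the older somite-bearing axis without the head. Each piece was thus measured in 5 control and 4 DKO libraries. The labels do not say which alleles or Cre the control embryos carried. Delta1 (Dll1) is a Notch ligand gene active in presomitic mesoderm, so cells that never had the Cre keep both genes, and whole pieces of tissue mix both kinds of cell.

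In the embryo, retinol is first oxidised to retinal, a reversible step that Rdh10 drives forward and Dhrs3 drives back. The retinaldehyde dehydrogenases Aldh1a1, Aldh1a2 and Aldh1a3 then oxidise retinal to retinoic acid, and Aldh1a2 is the main enzyme of this step in trunk mesoderm. The cytochromes Cyp26a1, Cyp26b1 and Cyp26c1 break retinoic acid down, so a domain of Cyp26 expression, such as the tail bud, is kept low in the signal. Retinoic acid binds nuclear receptors that sit on paired half-sites in DNA, and Cyp26a1 is among their direct targets. Meis1 and Meis2 encode homeodomain proteins of the TALE class, which bind DNA with Hox and Pbx proteins and are themselves known to respond to retinoic acid. The study's title names a feedback between Meis and retinoic acid, and the comparisons below ask how these enzymes differed between genotypes and between the pieces of the axis.

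On GRCm38, Rdh10 lies at chr1:16105774-16133734 and Dhrs3 at chr4:144892827-144928209, both on the plus strand. Aldh1a1 lies at chr19:20492715-20643465 (plus), Aldh1a2 at chr9:71215789-71296243 (plus) and Aldh1a3 at chr7:66390890-66427517 (minus). Cyp26b1 lies at chr6:84571414-84593908 (minus). Cyp26c1 at chr19:37685581-37693398 and Cyp26a1 at chr19:37697798-37701536 are neighbours on the plus strand, with 4399 bp from the end of the first to the start of the second. No exon of the 8 genes overlapped an exon of another gene. Of all 61-base stretches of their transcripts, the read length used, 2.03% for Aldh1a1 were shared with another gene (Aldh1a7) and 0.891% for Aldh1a3, against 0 for the others. Expected counts were whole numbers in 38.9% of libraries for Aldh1a1 and 5.56% for Aldh1a3, against 100% for the others. The low counts of these 2 genes may thus hold reads shared with other genes.

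The sequences just before the start sites are shown for Cyp26a1, whose level differed most between the pieces, and for Aldh1a2, the most abundant of the enzymes. Both are 250 bases long, read 5′ to 3′ from RefSeq's GRCm38.p6, at chr19:37697558-37697807 and chr9:71215539-71215788, both on the plus strand. Capitals mark a direct repeat of retinoic acid receptor half-sites.
Cyp26a1: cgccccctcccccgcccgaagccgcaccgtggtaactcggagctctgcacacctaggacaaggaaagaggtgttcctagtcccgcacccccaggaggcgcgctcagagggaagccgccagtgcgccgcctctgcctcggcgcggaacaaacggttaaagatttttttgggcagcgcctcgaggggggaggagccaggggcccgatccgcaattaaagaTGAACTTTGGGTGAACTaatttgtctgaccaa
Aldh1a2: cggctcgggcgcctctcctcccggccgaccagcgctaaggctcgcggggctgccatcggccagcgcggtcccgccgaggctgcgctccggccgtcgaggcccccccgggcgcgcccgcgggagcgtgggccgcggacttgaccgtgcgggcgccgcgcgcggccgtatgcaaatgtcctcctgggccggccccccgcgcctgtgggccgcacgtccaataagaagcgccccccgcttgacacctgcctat
The capitals read on the other strand as the half-site AGTTCA, a gap of 5 bases and the same half-site again, and they span positions -32 to -16 counted from the RefSeq start. The search covered pairs of the half-sites AGGTCA and AGTTCA and their variants GGGTCA and GGTTCA in the same orientation with 1, 2 or 5 bases between them, on both strands. Among 32851 such windows of RefSeq promoters, 29 (0.0883%) held a pair spaced by 5, 0.174% a pair spaced by 2 and 0.164% a pair spaced by 1. Of the 8 enzymes, 6 had windows in the table (9 windows), and Rdh10 and Aldh1a3 had none. The Cyp26a1 pair was the only one found in those 9 windows. The Meis core TGACAG was found in 15.9% of all windows and, among the enzymes, in 1 window of Aldh1a1. The core preceded directly by TGAT, the joint Hox and Meis form, was found in 0.198% of all windows and in no window of the enzymes. The Aldh1a2 window was 77.6% G and C and the Cyp26a1 window 61.6%, where the median over all windows was 52.4%. These are matches of letters in a short window and show no binding.

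Libraries held 12.7 to 38.2 megacounts of expected reads, so 3 counts, used as a floor, corresponded to 0.0786 to 0.237 counts per megacount (CPM). Levels are given as CPM scaled between libraries, and levels of different genes are compared only per kilobase of exon. The summed level of 12 somite markers was 300 to 673 CPM in the 18 libraries. Of 8 markers of the head, which was left out at dissection, Otx2 and Vax1 stayed at 3 counts or fewer in every library, while Emx2, Lhx2 and En1 were high enough to be tested in the anterior piece. The 8 summed to 2.88 to 25.9 CPM in anterior and 6.13 to 16.3 CPM in posterior libraries. Emx2 and Lhx2 were also tested in the posterior piece. Emx2 is counted among the intermediate mesoderm markers below as well, so the sum does not measure head tissue alone. The deleted genes were still counted in DKO libraries, where counts per gene do not show which exons were read. Meis1 averaged 125 ± 8.64 CPM (SD, n = 5) in anterior controls and 102 ± 9.5 (n = 4) in anterior DKO, and Meis2 190 ± 10 and 143 ± 11.3. In posterior libraries Meis1 averaged 84.4 ± 15.2 and 57.5 ± 11.8, and Meis2 143 ± 16.7 and 99.4 ± 11.3, and edgeR's adjusted p for these 4 differences lay between 0.0522 and 0.336, while DESeq2 called both genes lower in both pieces. The anterior library of control 3 stood apart in its head markers, which summed to 25.9 CPM against 2.88 to 7.3 CPM in the other anterior libraries. The levels of Xist and of Y-linked genes went against the sex label in both libraries of 1 embryo, control 1. Without control 1, the counts of enzymes past the threshold in the comparisons below were the same.

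Of the 8 genes, Aldh1a2 had the highest level per kilobase in all 4 groups, at 59.5 ± 13.6 CPM per kb (SD, n = 5) in anterior and 51.2 ± 7.97 in posterior controls. In anterior controls the order went on with Rdh10 (7.6 ± 0.911), Dhrs3 (2.79 ± 0.577), Cyp26b1 (2.54 ± 0.566), Cyp26a1 (1.73 ± 0.671) and Cyp26c1 (0.908 ± 0.537). Dhrs3 and Cyp26b1 lay within 1 SD of each other there. In posterior controls Cyp26a1 came next to Aldh1a2 with 21.6 ± 2.73 CPM per kb, ahead of Rdh10 (8.38 ± 1.05) and Dhrs3 (2.41 ± 0.274). Aldh1a3 (0.817 ± 0.198), Cyp26b1 (0.589 ± 0.127) and Cyp26c1 (0.473 ± 0.201) followed close together. Aldh1a1 was near the floor in both pieces, at 0.0969 ± 0.036 and 0.121 ± 0.0327 CPM per kb, as was Aldh1a3 in the anterior piece (0.0865 ± 0.0401).

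**Figure D1:**
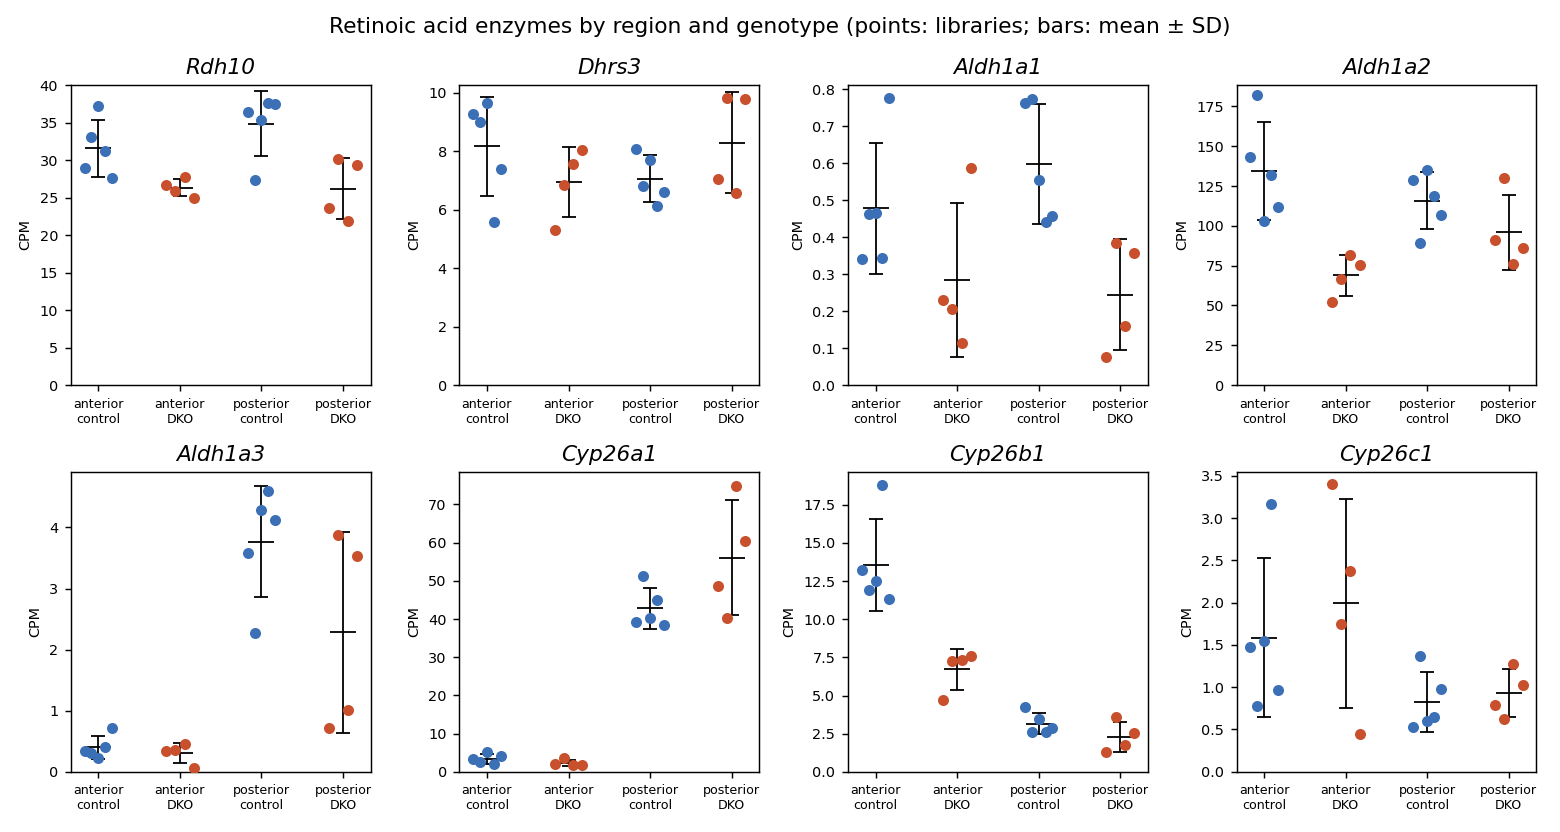
Levels of the 8 enzyme genes in CPM (vertical axis, each panel with its own scale from 0) in the 4 groups; each point is 1 library, the short line is the mean and the bars are 1 SD (n = 5 control, n = 4 DKO). Cyp26a1 and Aldh1a3 were higher in posterior pieces and Cyp26b1 in anterior pieces, while anterior Aldh1a2 and Cyp26b1 in DKO lay below every anterior control.

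Along the axis of control embryos, Cyp26a1 was higher in the posterior piece and Cyp26b1 was higher in the anterior piece. Aldh1a3 was near the floor in the anterior piece and higher in every posterior library. The degradation enzymes Cyp26a1 and Cyp26b1 thus had opposite distributions. Rdh10, Dhrs3 and the main synthesis enzyme Aldh1a2 showed no difference that passed the test. In edgeR's quasi-likelihood test, 25.4% of all 15294 genes passed an adjusted p of 0.05, 12.1% with higher and 13.3% with lower posterior levels, and 20.1% had groups without overlap. A gene was tested where at least 5 libraries reached 0.536 CPM. Of the 7 enzymes tested, Aldh1a3 entered through its posterior libraries alone. Cyp26c1 reached the level in 5 anterior but only 4 posterior libraries. Of the 5 that reached this level in both pieces, 1 was higher and 1 lower, both without overlap, and 24.6% of the 13433 genes that did so passed. Aldh1a1 was too low to be tested.

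Cyp26a1, the retinoic acid hydroxylase of the tail bud, had 39.1, 51.3, 40.3, 45.1 and 38.4 CPM in the posterior libraries of controls 1 to 5. In the anterior libraries of the same embryos it had 3.23, 2.44, 5.28, 2.01 and 4.21 CPM. Every posterior library was far above every anterior one, and the posterior values varied little. The difference was 3.68 ± 0.207 on the log2 scale (SE), or 12.8-fold (edgeR, adjusted p = 1.37e-07). Within single embryos it ran from 2.91 in control 3 to 4.43 in control 4. Markers of the axial bud summed to 646 to 959 CPM in posterior and 159 to 183 CPM in anterior controls, and all 7 of the 12 that reached the filter's level in both pieces were higher posteriorly (edgeR, adjusted p under 0.05). The other 5 entered through their posterior libraries.

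Cyp26b1, a related hydroxylase known from hindbrain and limb, had the opposite pattern. Its level in the anterior libraries of controls 1 to 5 was 13.2, 11.9, 12.5, 18.8 and 11.3 CPM. Its posterior level was 4.22, 2.62, 3.43, 2.62 and 2.88 CPM. The ranges were well apart, and control 4 had the highest anterior value and shared the lowest posterior one. The posterior minus anterior difference was -2.09 ± 0.18 on the log2 scale (edgeR, adjusted p = 3.46e-06). Cyp26c1, the third hydroxylase, had 0.774 to 3.16 CPM in anterior and 0.527 to 1.37 CPM in posterior controls, with overlap. It reached the filter's level in 4 of 5 posterior libraries. Its difference of -0.95 ± 0.407 did not pass (edgeR, adjusted p = 0.114). Of 12 alternative settings 1 passed (edgeR, adjusted p = 0.023), with an embryo left out.

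Aldh1a3, a retinal dehydrogenase best known from eye and nasal tissue, had 3.58, 2.27, 4.28, 4.59 and 4.12 CPM in the posterior libraries of controls 1 to 5. In the anterior libraries it stayed at 0.233 to 0.712 CPM, or 3.07 to 11.06 counts. The groups were well apart, and as the gene was tested only because of its posterior libraries, the difference is given by these levels without a test. Its posterior level per kilobase was far below that of Aldh1a2. Aldh1a2 itself differed by -0.22 ± 0.147 between the pieces (edgeR, adjusted p = 0.328). Control 2 had the widest gap for this gene, with 182 CPM in the anterior and 89.5 CPM in the posterior library, and without control 2 the difference was 0.00. The retinol dehydrogenase Rdh10 differed by 0.14 ± 0.101 and the retinal reductase Dhrs3 by -0.21 ± 0.152, and neither passed (edgeR, adjusted p of 0.351 and 0.375).

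Cyp26a1 and Cyp26b1 also passed between the pieces of DKO embryos, in the same directions. Of all 15777 genes tested there 18.5% passed, 8.76% higher and 9.7% lower, and 23.5% had groups without overlap. The 7 enzymes tested again included Aldh1a3, which entered through its posterior libraries alone. Of the 6 that reached the filter's level in both pieces, 1 was higher and 1 lower, and 17.3% of the 13888 genes that did so passed. Cyp26a1 had 48.6, 40.3, 74.9 and 60.5 CPM in the posterior libraries of DKO 1 to 4 and 1.94, 3.6, 1.85 and 1.73 CPM in the anterior ones. The difference was 4.65 ± 0.27 on the log2 scale, or 25.1-fold (edgeR, adjusted p = 2.92e-06). DKO 2 stood out with the lowest posterior and the highest anterior value. Cyp26b1 differed by -1.53 ± 0.295 (edgeR, adjusted p = 0.00444), from 4.69, 7.25, 7.33 and 7.56 CPM in anterior to 1.32, 3.59, 1.76 and 2.51 CPM in posterior libraries.

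Aldh1a3 was uneven in DKO. Its posterior level was 0.719 CPM in DKO 1 and 1.01 CPM in DKO 3, but 3.87 in DKO 2 and 3.53 in DKO 4, the range of the controls. Its anterior level was 0.0691 to 0.462 CPM, or 2 to 11.51 counts, below every posterior library, and no test is drawn on for this gene. Aldh1a2 was 0.48 ± 0.176 higher in posterior DKO pieces without passing (edgeR, adjusted p = 0.0917), but passed without DKO 3 (0.67, adjusted p = 0.0413) and in DESeq2 (0.48, adjusted p = 0.0323). Cyp26c1 gave -1.11 ± 0.51 (edgeR, adjusted p = 0.18), and -1.52 without DKO 4 (adjusted p = 0.0269).

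**Figure D2:**
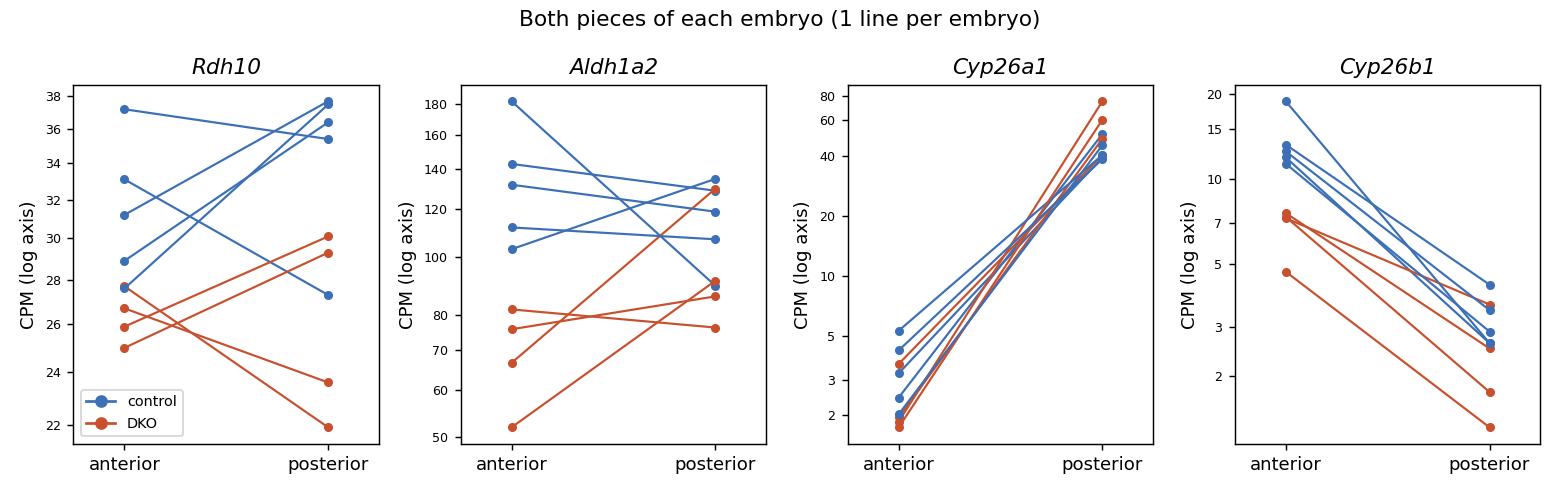
Levels in CPM (log axis) of Rdh10, Aldh1a2, Cyp26a1 and Cyp26b1 in the anterior and posterior piece of each embryo, joined by a line (blue, 5 control embryos; orange, 4 DKO embryos). Cyp26a1 was higher and Cyp26b1 lower in the posterior piece of all 9 embryos, whereas lines of Rdh10 and Aldh1a2 ran in both directions.

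In the anterior piece, DKO embryos had 0.51 of the control level of the synthesis enzyme Aldh1a2 and 0.491 of that of the degradation enzyme Cyp26b1. For these 2 genes every DKO library lay below every control. Rdh10 had a lower mean, and the groups of the remaining enzymes overlapped. Neither gene passed the threshold over all genes tested: of 6 enzymes tested, 0 had an adjusted p under 0.05 in edgeR's quasi-likelihood test, where 0.0394% of all genes (6 of 15238) did. At an unadjusted p under 0.05 there were 3, against 13% of all genes. Groups without overlap and lower in DKO were 2 of 6, against 2.62% of all genes. DESeq2 called 2 enzymes, both lower, against 1.17% of all genes, and limma-voom 0, against 0.19%. Cyp26c1 reached the filter's level of 0.566 CPM in 3 of 4 DKO libraries only, and the other 5 hold all of these counts. The median log2 difference was -0.58 over those 5 and 0.00 over all genes, and Aldh1a1 and Aldh1a3 were too low to be tested.

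Aldh1a2 had 143, 182, 103, 132 and 112 CPM in the anterior libraries of controls 1 to 5. In those of DKO 1 to 4 it had 51.9, 66.5, 81.7 and 75.7 CPM. The highest DKO value lay below the lowest control value, that of control 3. The difference was -0.97 ± 0.17 on the log2 scale, 0.51 of the control level (edgeR, adjusted p = 0.0641), and it ranked 31 of 15238 genes by p. Leaving out single embryos gave -1.06 to -0.84. Over 15 alternative settings its adjusted p ran from 0.000786 to 0.214 and 4 passed.

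Cyp26b1 had 13.2, 11.9, 12.5, 18.8 and 11.3 CPM in anterior controls and 4.69, 7.25, 7.33 and 7.56 CPM in anterior DKO. The DKO libraries were all lower, with DKO 1 the lowest and the other 3 nearly equal. The difference was -1.03 ± 0.182 on the log2 scale, 0.491 of the control level (edgeR, adjusted p = 0.0659), rank 35. Its adjusted p ran from 3.87e-05 to 0.214 over the same 15 settings and 2 passed. Cyp26a1 had 2.01 to 5.28 CPM in controls and 1.73 to 3.6 CPM in DKO, and its difference of -0.58 ± 0.317 did not pass (edgeR, adjusted p = 0.472). Cyp26c1 spread from 0.774 to 3.16 CPM in controls and from 0.449 to 3.4 CPM in DKO, with a difference of 0.34 ± 0.525 (edgeR, adjusted p = 0.827) that turned to -0.09 without DKO 1.

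Rdh10, which makes the retinal that Aldh1a2 uses, had 28.9, 33.1, 37.2, 31.2 and 27.6 CPM in anterior controls and 26.7, 25.9, 27.7 and 25 CPM in anterior DKO. The DKO values were close together at the lower edge of the controls, and the groups touched only through control 5 and DKO 3. The difference was -0.26 ± 0.0853 on the log2 scale (edgeR, adjusted p = 0.238). Dhrs3 had 5.57 to 9.64 CPM in controls and 5.31 to 8.05 CPM in DKO, a difference of -0.24 ± 0.176 (edgeR, adjusted p = 0.608). Aldh1a1 had 0.34 to 0.777 CPM in controls and 0.115 to 0.587 CPM in DKO, 2.05 to 17.25 counts in anterior DKO libraries. Aldh1a3 had 0.0691 to 0.462 CPM in anterior DKO, within or below the range of the controls.

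**Figure D3:**
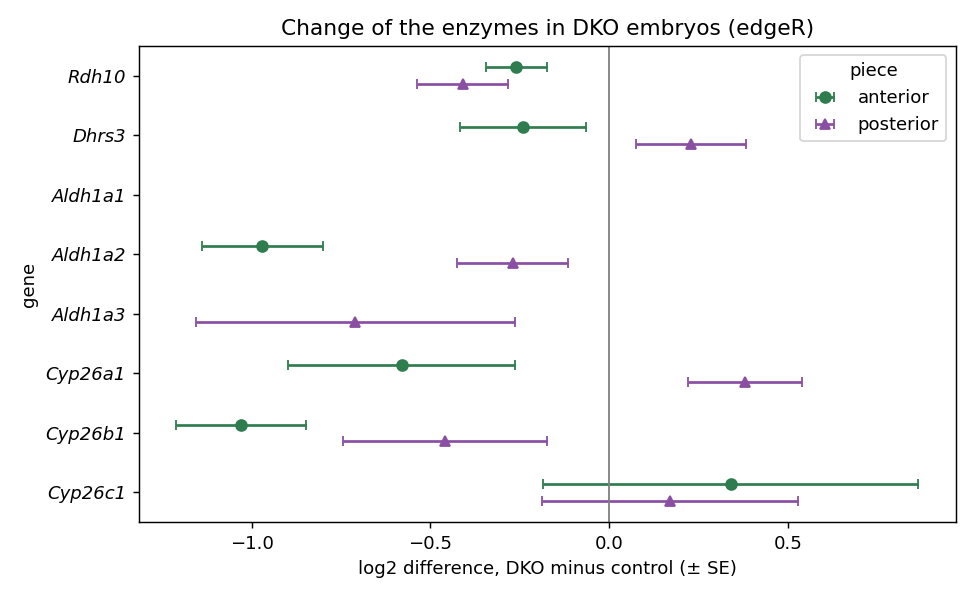
Difference between DKO and control on the log2 scale (horizontal axis, DKO minus control; bars, 1 SE from edgeR) for each enzyme gene in the anterior (circles, n = 5 and 4) and posterior (triangles, n = 5 and 4) pieces. Anterior Aldh1a2 (-0.97) and Cyp26b1 (-1.03) lie farthest from 0 relative to their errors. Aldh1a3 has a posterior value only, and Aldh1a1 has none.

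Summed levels of mesoderm markers were also lower in the anterior DKO libraries. Of 12 markers of paraxial mesoderm, the source of the somites, 10 were tested and 8 had negative differences. At an unadjusted p under 0.05, 6 were lower, against 6.61% of all genes, and 1, the somite gene Uncx (0.32 ± 0.13), was higher, against 6.41%. None passed the adjusted threshold in edgeR, and 2 were called lower by DESeq2, which called 1.17% of all genes lower and 0.768% higher in this comparison. Their summed level was 431 to 505 CPM in controls and 318 to 418 CPM in DKO, without overlap. Of 11 markers of lateral plate and limb mesoderm, 7 of 9 tested had negative differences, 4 of them at an unadjusted p under 0.05. None passed in edgeR, and DESeq2 called 1 lower. Their sum was 167 CPM in control 3, which stood apart, 76 to 87.1 CPM in the other 4 controls and 48.4 to 68.8 CPM in DKO. Of 8 markers of intermediate mesoderm, 7 had negative differences, none passed in edgeR and DESeq2 called 2 lower, with overlapping sums. Of 12 neural tube markers, 11 had positive differences, 8 of them at an unadjusted p under 0.05, and none passed in edgeR, while DESeq2 called 5 higher. Their sum was 524 to 638 CPM in controls and 679 to 742 CPM in DKO. Of 8 neural crest markers, 8 had positive differences, 5 of them at an unadjusted p under 0.05, none passed in edgeR and DESeq2 called 3 higher, with overlapping sums. In whole pieces of tissue, fewer cells of a type and less RNA per cell cannot be told apart.

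Relative to the paraxial sum of the same library, Aldh1a2 was 0.229 to 0.36 in anterior controls and 0.159 to 0.212 in anterior DKO, a mean of 0.636 of control. Cyp26b1 on the same scale was 0.0233 to 0.0386 in controls and 0.0147 to 0.019 in DKO, 0.608 of control. Both ranges stayed apart, while Rdh10 on this scale averaged 1.04 of control. Relative to the lateral plate and limb sum, Aldh1a2 was 0.621 to 2.17 in controls and 0.996 to 1.69 in DKO, and Cyp26b1 0.0751 to 0.248 and 0.0921 to 0.151. These ranges overlapped, with means of 0.789 and 0.759 of control. Control 3 set the lowest control value of both. Without it the controls ran from 1.29 to 2.17 and from 0.13 to 0.248, still overlapping DKO, and the means were 0.687 and 0.673 of control. Relative to the sums of hindbrain, neural tube and axial bud markers, the ranges of both genes stayed apart. The neural tube sum was itself higher in all anterior DKO libraries, as was the axial bud sum (159 to 183 CPM in controls and 188 to 221 CPM in DKO), which lowers ratios to them in DKO, while the hindbrain sums overlapped. On these 3 scales Aldh1a2 averaged 0.49, 0.425 and 0.42 of control, and Cyp26b1 0.474, 0.414 and 0.41. Of the axial bud markers, Tbx6, Msgn1, Hes7, Cdx2 and Cdx4 were too low to be tested in the anterior piece. Of those tested, T, Dll1, Wnt3a, Nkx1-2 and Dusp6 had positive differences there, and Rspo3 and Fgf8 negative ones. Their anterior sum is therefore not read as an amount of axial bud tissue. The part of changed tissue make-up in the 2 differences was not tested beyond these ratios.

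**Figure D4:**
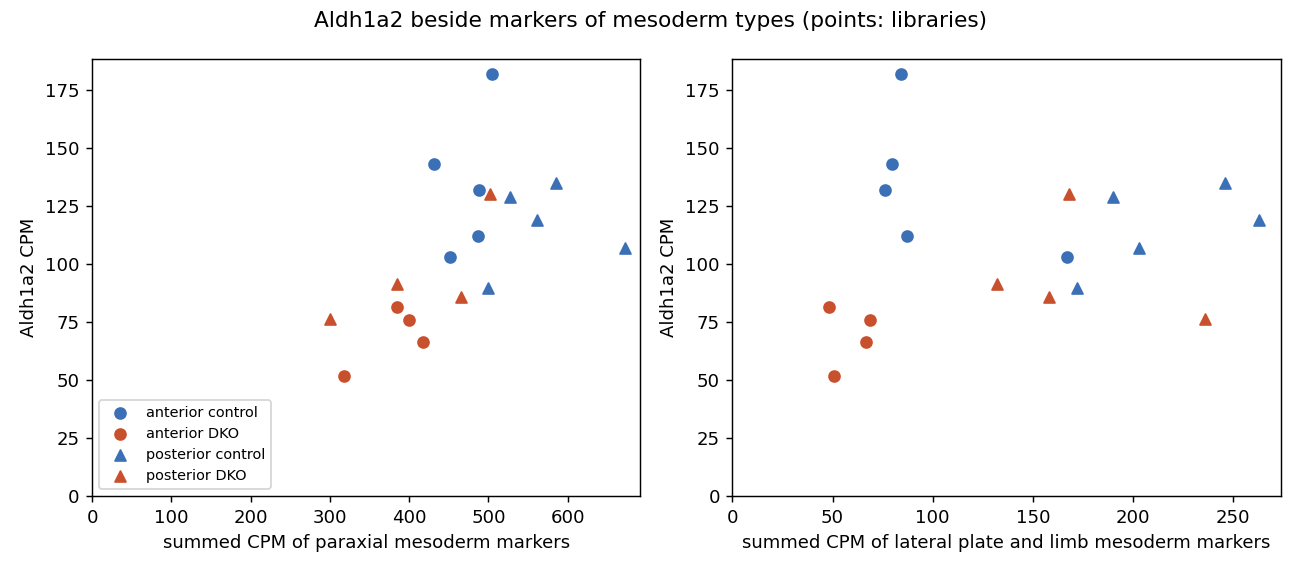
Level of Aldh1a2 (vertical axis, CPM) against the summed CPM of paraxial mesoderm markers (left) and of lateral plate and limb mesoderm markers (right), 1 point per library, circles anterior, triangles posterior, blue control and orange DKO. The 4 anterior DKO libraries, with 51.9 to 81.7 CPM of Aldh1a2, lie below and to the left of all anterior controls in both panels. In the left panel posterior DKO 3 lies farther left still, at a sum of 300 CPM and 76.2 CPM of Aldh1a2.

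In the posterior piece, DKO embryos had 0.827 of the control level of Aldh1a2, 0.729 of that of Cyp26b1 and 1.31 of that of Cyp26a1, all with overlapping groups. Rdh10 was at 0.753 of control. Of 8 enzymes tested, 0 passed in edgeR's quasi-likelihood test, where 0.0126% of all genes (2 of 15936) did. DESeq2 and limma-voom called 0, against 1.01% and 0.0188% of all genes. Aldh1a1 entered the test through the controls alone, since all 5 reached the filter's level of 0.432 CPM and no DKO library did. Of the other 7 enzymes, 2 had an unadjusted p under 0.05, against 11% of all genes, and 0 had DKO libraries that all lay below the controls, against 2.12% of all genes. Their median log2 difference was -0.27, and that of all genes was 0.01.

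Rdh10 had 36.4, 27.3, 35.4, 37.7 and 37.5 CPM in posterior controls and 23.6, 30.1, 21.9 and 29.3 CPM in posterior DKO. In 4 controls the level lay above that of all DKO libraries, and control 2 lay among them. The difference was -0.41 ± 0.126 on the log2 scale (edgeR, adjusted p = 0.369). Dhrs3, which works against Rdh10, had 6.12 to 8.06 CPM in controls and 6.56 to 9.8 CPM in DKO, a difference of 0.23 ± 0.154 (edgeR, adjusted p = 0.554).

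Aldh1a2 had 129, 89.5, 135, 119 and 107 CPM in posterior controls and 91.2, 130, 76.2 and 85.9 CPM in posterior DKO. DKO 2 was as high as the highest controls, and control 2 lay among the other DKO libraries. The difference was -0.27 ± 0.155 (edgeR, adjusted p = 0.502). Aldh1a3 differed by -0.71 ± 0.446 (edgeR, adjusted p = 0.533), the average of 2 DKO libraries below the controls and 2 within them. Aldh1a1 had 0.764, 0.773, 0.554, 0.442 and 0.458 CPM in controls and 0.0756, 0.384, 0.16 and 0.358 CPM in DKO. These values rested on 2 to 28.59 counts per library, some of them at or under the floor, and are given without a test because the controls alone brought the gene into the fit.

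Cyp26a1 in posterior pieces was 38.4 to 51.3 CPM in controls and 40.3 to 74.9 CPM in DKO. DKO 3 and DKO 4 lay above all controls, DKO 1 and DKO 2 within their range. The difference was 0.38 ± 0.16 on the log2 scale (edgeR, adjusted p = 0.449). All 12 axial bud markers had positive differences too, and none passed (edgeR and DESeq2), 0 of them at an unadjusted p under 0.05. Relative to their sum, Cyp26a1 was 0.0516 to 0.0625 in controls and 0.0584 to 0.0784 in DKO, with overlap. In both genotypes the youngest embryo, of 20 somites (control 2 and DKO 3), had the highest posterior Cyp26a1 and the highest axial bud sum, 959 and 1091 CPM, and the lowest posterior Rdh10 and Aldh1a2. With sex label and somite number in the model, the difference of Cyp26a1 was 0.35 (edgeR, adjusted p = 0.402). Cyp26b1 differed by -0.46 ± 0.285 (edgeR, adjusted p = 0.533) and Cyp26c1 by 0.17 ± 0.357 (edgeR, adjusted p = 0.856).

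Other tissue markers differed between the same posterior libraries. The paraxial sum was 500 to 673 CPM in posterior controls and 300 to 502 CPM in posterior DKO, and 5 of 12 markers were lower at an unadjusted p under 0.05, against 5.74% of all genes. The intermediate mesoderm sum was 114 to 143 CPM in controls and 75.1 to 104 CPM in DKO, without overlap. All 8 of these markers had negative differences, 7 of them at an unadjusted p under 0.05. The surface ectoderm sum was 238 to 333 CPM in controls and 341 to 406 CPM in DKO, also without overlap, with 3 of 10 markers higher at an unadjusted p under 0.05, against 5.27% of all genes. All 11 markers of primitive erythroid cells had positive differences in the posterior piece, 7 of them at an unadjusted p under 0.05, and all 11 had negative ones in the anterior piece, 0 at that level. Their posterior sum was 1540 to 2544 CPM in controls and 1864 to 3839 CPM in DKO, with overlap. In edgeR 0 markers of these 4 lists passed. DESeq2 called 2 paraxial and 5 intermediate mesoderm markers lower, against 0.521% of all genes, 1 surface ectoderm marker higher, against 0.489%, and 0 erythroid markers. Sums of lateral plate and limb, neural tube, hindbrain and gut endoderm markers overlapped. The part of these tissues in the posterior values of the enzymes was not tested.

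The difference between the posterior and the anterior effect of the genotype was itself tested over all 18 libraries. No gene passed in edgeR (0% of 16428), and 0 of the 8 enzymes did. At an unadjusted p under 0.05 there were 2 enzymes, against 3.45% of all genes, and DESeq2 and limma-voom called 0 of the 8. These 2 were Aldh1a2, at 0.70 ± 0.249 on the log2 scale, and Cyp26a1, at 0.96 ± 0.352, both with an adjusted p of 0.999 in edgeR. A difference between the pieces in the effect of the genotype was therefore not shown for any enzyme. The positive value for Aldh1a2 came from an anterior level at 0.51 of control beside 0.827 in the posterior piece, and that for Cyp26a1 from 0.667 beside 1.31. Dhrs3 gave 0.47 ± 0.242 and Cyp26b1 0.57 ± 0.344, also with an adjusted p of 0.999.

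Ratios within a library show the balance of opposing enzymes without scaling between libraries. Cyp26a1 to Aldh1a2, degradation against synthesis, was 0.0153 to 0.0583 per kilobase in anterior controls and 0.0258 to 0.0618 in anterior DKO. In posterior libraries it was 0.346, 0.655, 0.341, 0.435 and 0.408 in controls 1 to 5 and 0.608, 0.354, 1.12 and 0.804 in DKO 1 to 4. Posterior libraries were thus all above anterior ones, and DKO 3 alone had more Cyp26a1 than Aldh1a2 per kilobase. Dhrs3 to Rdh10, the backward against the forward enzyme of the retinol step, was 0.314, 0.356, 0.309, 0.23 and 0.251 in posterior controls and 0.423, 0.463, 0.425 and 0.474 in posterior DKO. These groups did not overlap, whereas in anterior libraries the ratio was 0.254 to 0.456 in controls and 0.283 to 0.457 in DKO. Rdh10 to Aldh1a2 was 0.0991 to 0.196 in anterior controls and 0.18 to 0.28 in anterior DKO. Cyp26b1 to Aldh1a2 was 0.0277 to 0.0604 in anterior controls and 0.0379 to 0.0461 in anterior DKO, so the range in DKO lay within that of the controls. The ratios were chosen with the levels known and carry no test.

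**Figure D5:**
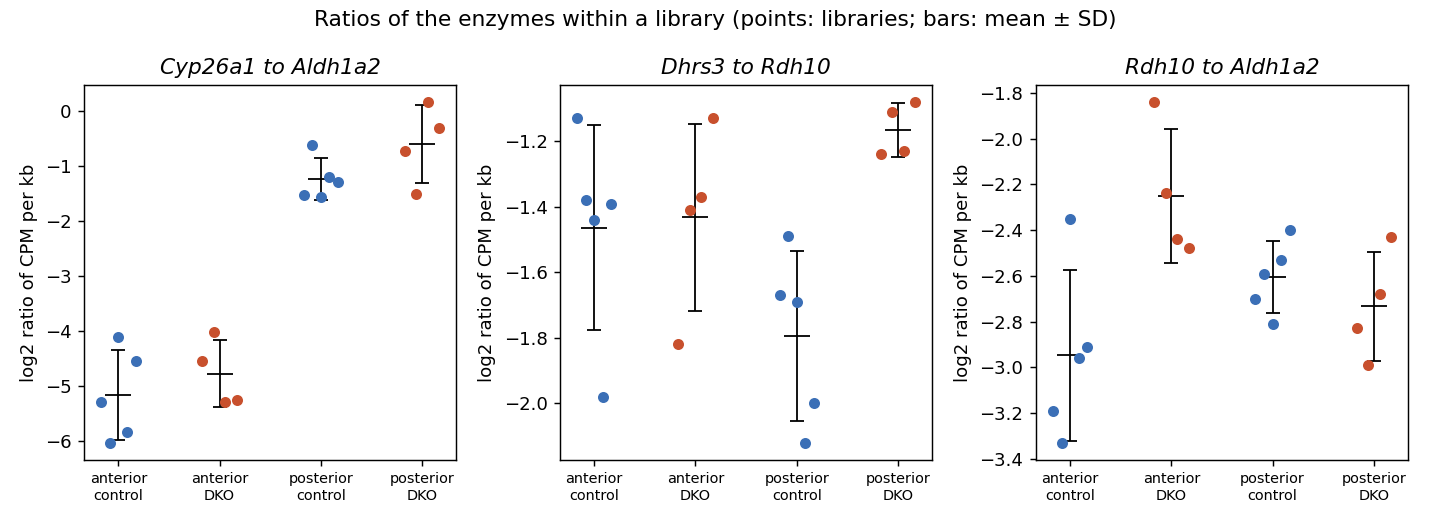
Ratios between enzymes within a library on the log2 scale of CPM per kilobase (vertical axes) in the 4 groups, with 1 point per library and mean and SD bars (n = 5 control, n = 4 DKO). Cyp26a1 to Aldh1a2 separates posterior from anterior libraries, and Dhrs3 to Rdh10 is higher in all posterior DKO than in all posterior controls.

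The other genes of the pathway were read from lists of 71 genes in all: retinol supply, other retinoid enzymes, binding proteins, receptors, coregulators, genes known to be raised by retinoic acid, and axial bud genes opposed to it. Between the genotypes none passed in edgeR, out of 55 tested in the anterior and 57 in the posterior piece. At an unadjusted p under 0.05, 10 were higher and 1 lower in anterior DKO, against 6.41% and 6.61% of all genes. In posterior DKO 5 were higher and 5 lower, against 5.27% and 5.74%. DESeq2 called 2 of the anterior genes, both higher, against 0.768% of all genes. Of the posterior genes it called 2 higher, against 0.489%, and 1 lower, against 0.521%. Limma-voom called 1 anterior gene, which was higher, against 0.0591%, and 0 posterior genes. The lowest anterior values of p belonged to Olig2, a motor neuron progenitor gene, with 0.38 ± 0.0607 (edgeR, adjusted p = 0.0522) and to the neurogenic gene Neurog2, with 0.45 ± 0.0968 (adjusted p = 0.103). Both also stand among the 12 neural tube markers, none of which passed in edgeR.

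Of the retinol supply genes, 0 of 4 tested passed in either piece. The carrier Ttr had 8 to 63 counts in posterior DKO and 3 to 19 in controls. It reached the filter's level in 3 DKO libraries and 1 control library, so it is given without a test. The carrier Rbp4 differed by 1.41 ± 0.393 in posterior DKO (edgeR, adjusted p = 0.322), where 8 of 10 gut endoderm markers also had positive differences, 4 at an unadjusted p under 0.05. The retinol dehydrogenase Adh1 was -0.95 ± 0.321 in anterior and -0.94 ± 0.353 in posterior DKO relative to control (edgeR, adjusted p of 0.255 and 0.427). Among the 3 binding proteins and 7 receptors, the retinoic acid binding protein Crabp1 had the lowest p in the anterior piece, with a difference of 0.27 ± 0.0858 (edgeR, adjusted p = 0.227). The receptor gene Rarb, itself a retinoic acid target, had no unadjusted p under 0.05 in either piece.

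Between the pieces many genes of the pathway differed. In controls 56 of the 71 genes were tested, and edgeR called 17 with posterior and 18 with anterior excess (adjusted p under 0.05), against 12.1% and 13.3% of all genes. Of these 56, 5 did not reach the filter's level in both pieces, and of the other 51 there were 14 and 17. Posterior genes included the axial bud regulator T (4.51 ± 0.168) and the signal Fgf8 (2.95 ± 0.211). The related signal Fgf17 had 29.5 to 60.5 CPM in posterior controls and 1 to 5 counts in anterior ones, at or near the floor, so no fold is given. Anterior genes included Crabp1 (-2.17 ± 0.0829), the retinoid-induced nuclear receptor Nr2f1 (-1.66 ± 0.111) and Rarb (-1.57 ± 0.169). All 3 binding proteins were lower posteriorly. Of the receptors 1 was higher, Rarg (1.87 ± 0.152), and 4 were lower, of which Rxrg was short of the filter's level in posterior libraries. Of the genes opposed to retinoic acid 9 of 10 were higher, but Fgf17 and Fgf4 among them entered through their posterior libraries. Wnt8a reached the filter's level in 5 posterior but only 4 anterior libraries. In DKO embryos 57 were tested, 11 higher and 15 lower, against 8.76% and 9.7% of all genes, and of the 52 that reached the filter's level in both pieces there were 10 and 14. Fgf17 had 36 to 70.7 CPM in posterior DKO and 1 to 9 counts in anterior DKO. Among the other genes T and Fgf8 were again the largest rises, and Crabp1 and Nr2f1 were among the largest falls.

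Over the 18 libraries, the genes closest to an enzyme were found by Pearson's r of log2 CPM among 11818 genes. This is a description across libraries that share groups and embryos. Genes needed a mean of at least 50 counts, which left out Aldh1a1, Aldh1a3 and Cyp26c1. Cyp26a1 was closest to Endod1, Fgf18 and Etv4, each with r = 0.99. Cyp26b1 was closest to Aff3, Hdac9 and Tnfaip6, each with r = 0.95.  Aldh1a2 was closest to Pgm5 (0.84), Sept6 (0.79) and Nrp2 (0.78), and Rdh10 to Morc4 (0.93), Alx1 (0.83) and Mest (0.82). Dhrs3 had no close neighbour, with Srp68 first at 0.68. After removal of the 4 group means, Morc4 remained first for Rdh10 (0.88) and Etv4 stayed among the first 3 for Cyp26a1 (0.84). Among the enzymes themselves, the deviations of Aldh1a2 had r = -0.61 with Cyp26a1 and 0.56 with Cyp26b1.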

How the data were processed

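Poly(A) RNA of dissected pieces of mouse embryos was sequenced from a single end at 61 bp (NEBNext libraries, HiSeq), per the labels' protocols. The authors deposited 1 table of RSEM expected counts per Ensembl gene for GRCm38, unscaled, and the submitters' processing notes name CASAVA, cutadapt and RSEM. Their versions, the aligner and the use of strand are not given in the sources used here. Symbols, coordinates and exon lengths came from GENCODE M21, which held 53360 of the 53465 identifiers.

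Expected counts were rounded and tested in R 4.3.3 with edgeR 4.0.16 (filterByExpr with a minimum count of 10 and total of 15, TMM scaling, glmQLFit and glmQLFTest). P-values were adjusted by Benjamini-Hochberg over all genes tested, with a threshold of 0.05, and the SE is the size of the log2 difference divided by the square root of F. Replicates are different embryos. CPM was scaled by TMM over all 18 libraries, with a prior count of 2 for log2 values. The floor of 3 counts covers counting error only.

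Anterior and posterior libraries were assigned to embryos by genotype, sex label and somite number, each combination of which was unique. Controls 1 and 5 both had 23 somites and were told apart by the sex label alone. The Xist and Y-linked levels of control 1 go against that label. After removal of group means, same-embryo libraries correlated at 0.256 to 0.57 over genes in 9 pairs, and other pairs of a genotype at -0.283 to 0.0916. The embryo was a block in an alternative fit. Other alternatives were RLE size factors, no filter, DESeq2 1.42.0, limma-voom (limma 3.58.1), covariates, 1 fit of all libraries, and leaving out each embryo. The code was tested on simulated data.

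The 8 enzymes, the gene lists and the alternatives were chosen with earlier results of these data known. Named genes are the 8 enzymes, Meis1 and Meis2, the 3 genes closest to an enzyme, and, of the other pathway genes, the 3 with the largest difference in each direction among those past the threshold without overlap between groups. Other pathway and marker genes named, the ratios, and the values without control 3 were chosen after the data were seen. Promoter windows came from RefSeq's GRCm38.p6.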

Additional observations from a re-analysis of the deposited data

Results flagged for a closer look

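Of the 32 sets of an enzyme's CPM in 1 group, 5 held a library far from the rest of its group by Dixon's ratio, where chance alone gives about 1 in 20. Rdh10 in posterior controls was 27.3 CPM in control 2 and 35.4 to 37.7 CPM in the others. Aldh1a1 in anterior controls was 0.777 CPM in control 5 and 0.34 to 0.466 CPM in the others, all near the floor. Cyp26a1 in anterior DKO was 3.6 CPM in DKO 2 and 1.73 to 1.94 CPM in the others. Cyp26b1 in anterior controls was 18.8 CPM in control 4 and 11.3 to 13.2 CPM in the others, and in anterior DKO it was 4.69 CPM in DKO 1 and 7.25 to 7.56 CPM in the others. Without control 4 the anterior difference of Cyp26b1 between genotypes was -0.88 on the log2 scale, and without DKO 1 it was also -0.88.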

How the results depend on the processing

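Of 490 single-enzyme differences under an alternative, 463 kept their direction and side of the threshold. In the anterior genotype comparison, where the count of enzymes called was 0, it became 2 without a filter on low counts, 2 in DESeq2, 1 with sex label and somite number as covariates and 1 with all 18 libraries in one fit. Those called were Aldh1a2 in each of these and Cyp26b1 in the first and second, and the cause was not tested. All fits with covariates used the sex label as given, also for control 1, whose Xist and Y-linked levels go against it. Leaving out single embryos gave 0 in each genotype comparison. Between the pieces, among enzymes that reached the filter's level in both, it gave Cyp26a1 and Cyp26b1 each time. Aldh1a2 was added without DKO 3 and Cyp26c1 without DKO 4. Between control pieces Cyp26c1, short of that level in posterior libraries, was called in 1 of 12 alternatives, with an embryo left out. With the embryo as a replicate block, the calls of Cyp26a1 and Cyp26b1 between the pieces (2 in each genotype) were unchanged and no enzyme was called in the interaction.

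Directions turned in 15 of the 490. Cyp26c1 in anterior pieces ran from -0.09 to 0.77 and in posterior pieces from -0.01 to 0.45 as single embryos were left out. In the interaction it ran from -0.66 to 0.33, and was 0.01 in limma-voom, and Aldh1a3 ran from -0.94 to 0.15. Rdh10 between DKO pieces ran from -0.09 to 0.10, and was -0.01 without a filter, with covariates and with the embryo block, and 0.00 in limma-voom and with all libraries in one fit.

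Counts over all genes moved more. For the anterior genotype comparison they were 6 in edgeR, 83 without a filter, 88 with covariates, 29 in limma-voom, 19 with all libraries in one fit, 296 in DESeq2 and 1 to 57 without single embryos, the 57 without DKO 2. For the posterior one they were 2, 14 without a filter, 51 with all libraries, 161 in DESeq2 and 2 to 24 without single embryos, the 24 without DKO 2. The interaction gave 0, and 10 in DESeq2, with 1 without DKO 2. Between DKO pieces 2913 became 1728 without DKO 1. No scaling moved the median of all genes by over 0.1 on the log2 scale. Aldh1a1, and Aldh1a3 in anterior pieces, rested on few counts.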
